A study of Mus musculus with 6 samples.

Results

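Transcripts of 10 imprinted genes of the fetal growth network were followed in heart muscle cells of mice given α-ketoglutarate. The genes were Plagl1, Mest, Peg3, Zim1, Cdkn1c, Ndn, Impact, Grb10, Dlk1 and Sgce, found by their symbols among the 22063 genes of the deposited table, and all 10 were found once. They were chosen by their imprinted status with the counts and fold changes of these same libraries already known, so their values are a description and carry no p-value. The AKG group held 3 libraries from wild-type mice that received α-ketoglutarate (alpha-KG, 300 mg per kg per day) by daily injection for 2 weeks, and the Control group held 3 libraries from wild-type mice that received phosphate-buffered saline (PBS) on the same schedule. Per the labels' protocols, both groups were P21 mice, and the muscle cells were freed from the heart by Langendorff perfusion, in which the coronary vessels are flushed with enzyme. No label states how many mice went into a library, so spreads and p-values describe these libraries, and how much of their spread is technical is not known.

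In an imprinted gene, a mark laid down in the egg or the sperm leaves 1 parental copy silent. Many imprinted genes that control body size are abundant in the fetus and decline together after birth in mouse heart, kidney and lung. Paternally expressed members such as Mest and Peg3 as a rule promote growth, and maternally expressed members such as Cdkn1c and Grb10 restrain it. The counts did not separate the parental copies, so nothing below speaks of loss or gain of imprinting.

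Start sites of Plagl1, Mest and Peg3 are shown because germline methylation marks are known at their promoters, with those of Zim1, the neighbour of Peg3, and of Ndn, whose levels overlapped between the groups. RefSeq (GRCm38.p6) gave windows of 300 bases, from 250 before to 50 after a start site, for 7 of the 10 genes. Capitals mark the letters TGCCGC on either strand, read in mouse by the imprint-protecting zinc finger protein Zfp57 when methylated, and GGGGCCCC, a motif bound by the Plagl1 protein.
Plagl1, chr10:13090582-13090881, plus strand: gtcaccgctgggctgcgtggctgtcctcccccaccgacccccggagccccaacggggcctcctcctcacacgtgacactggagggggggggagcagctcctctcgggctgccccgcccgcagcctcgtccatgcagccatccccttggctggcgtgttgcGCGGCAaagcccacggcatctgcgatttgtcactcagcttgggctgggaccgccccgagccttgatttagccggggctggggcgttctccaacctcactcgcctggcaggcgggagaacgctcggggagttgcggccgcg
Mest, chr6:30737800-30738099, plus strand: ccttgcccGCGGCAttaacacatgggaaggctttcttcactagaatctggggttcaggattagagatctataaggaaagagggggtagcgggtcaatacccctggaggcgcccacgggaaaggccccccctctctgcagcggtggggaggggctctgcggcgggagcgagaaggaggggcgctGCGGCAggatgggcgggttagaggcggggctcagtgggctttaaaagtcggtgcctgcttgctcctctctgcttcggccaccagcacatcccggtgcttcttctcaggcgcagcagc
Peg3, chr7:6730370-6730669, minus strand: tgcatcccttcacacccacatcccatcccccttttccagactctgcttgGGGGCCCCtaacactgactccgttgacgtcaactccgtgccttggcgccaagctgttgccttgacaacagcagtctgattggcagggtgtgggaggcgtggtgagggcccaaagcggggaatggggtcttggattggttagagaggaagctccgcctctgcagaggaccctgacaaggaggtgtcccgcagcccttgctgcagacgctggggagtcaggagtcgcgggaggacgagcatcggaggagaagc
Zim1, chr7:6696383-6696682, minus strand: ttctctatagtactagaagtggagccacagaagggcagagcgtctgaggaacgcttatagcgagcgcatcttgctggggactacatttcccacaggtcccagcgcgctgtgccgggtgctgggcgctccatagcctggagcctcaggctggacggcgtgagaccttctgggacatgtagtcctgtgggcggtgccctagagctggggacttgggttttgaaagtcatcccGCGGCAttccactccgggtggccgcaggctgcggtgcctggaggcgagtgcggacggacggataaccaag
Ndn, chr7:62348027-62348326, plus strand: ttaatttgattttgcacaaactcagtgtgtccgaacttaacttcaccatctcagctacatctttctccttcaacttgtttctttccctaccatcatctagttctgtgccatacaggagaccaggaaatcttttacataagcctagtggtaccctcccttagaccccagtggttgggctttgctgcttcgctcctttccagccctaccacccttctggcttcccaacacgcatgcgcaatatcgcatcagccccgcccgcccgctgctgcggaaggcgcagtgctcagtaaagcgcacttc

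TGCCGC was found in a window of 4 of the 7 genes, namely Plagl1, Mest, Zim1 and Grb10, with 2 matches in the printed Mest window. By window, it was found in 5 of the 10 member windows, the Mest windows among them overlapping, and in 11.6% of the 32851 windows of the table. GGGGCCCC was found in the Peg3 window among the members and in 1.08% of all windows. The letters TATAAA and GCCATNTT, a YY1 motif, were in none of the 10 member windows used and in 13.6% and 6.05% of all windows. The printed windows held 26 CpG for Plagl1, 20 for Zim1, 17 for Mest, 13 for Peg3 and 11 for Ndn, against a median of 7 over all windows. These matches describe the letters only.

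The AKG libraries were not alike in atrial transcripts. A sum of 8 atrial markers was 949, 498 and 1021 CPM in AKG 1, 2 and 3, against 109 to 176 CPM in Controls. Of 6 tested, 3 rose, beside 25% of all tested genes. Nppa, a stress-induced natriuretic peptide gene as well as an atrial marker, made up 454 CPM of the sum in AKG 2. The atrial myosin light chain gene Myl7 stood at 138, 1.12 and 88.0 CPM in AKG 1, 2 and 3, against 4.15, 3.66 and 0.810 CPM in the Controls. Myl4, Mybphl, Sln and Bmp10 were likewise high in AKG 1 and AKG 3 and near Control levels in AKG 2. Results were therefore also computed with AKG 2 as the single AKG library, assumed to vary like the Controls. The member median log2 fold change was then 1.25, with Zim1 highest, Plagl1 at 2.47, Mest at 2.40, Peg3 at 1.57, Dlk1 at 1.63, Grb10 at 0.94, Sgce at 0.50, Cdkn1c at 0.11, Ndn at 0.02 and Impact at -0.71.

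Of the 10 imprinted genes 7 stood higher in every AKG library than in any Control library, Impact stood lower in every AKG library, and Cdkn1c and Ndn overlapped between the groups. Zim1, Plagl1 and Mest had the largest fold changes, between 5.17-fold and 7.02-fold. Levels are counts per 1e6 (CPM) after TMM scaling, which sets the typical gene equal between libraries, so a difference is relative to the typical gene. In a preparation of many cells, a change in the share of cells that hold a transcript and a change in the amount per cell cannot be told apart. The 3 AKG libraries lay wholly above the 3 Controls for 29.4% of 13117 tested genes, and for 7 of these 10. They lay wholly below for 29.9% of tested genes, and for 1 of these 10. Because the genes were picked with these values known, nothing is read from the comparison of shares. Of all tested genes 5.17% had a log2 fold change above 1, and 5 of the 10 members did. The member median was 1.23 and the median of all tested genes was 0.00. The set did not move as a unit, since Cdkn1c, Ndn and Impact did not stand above Control in every AKG library.

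**Figure D1:**
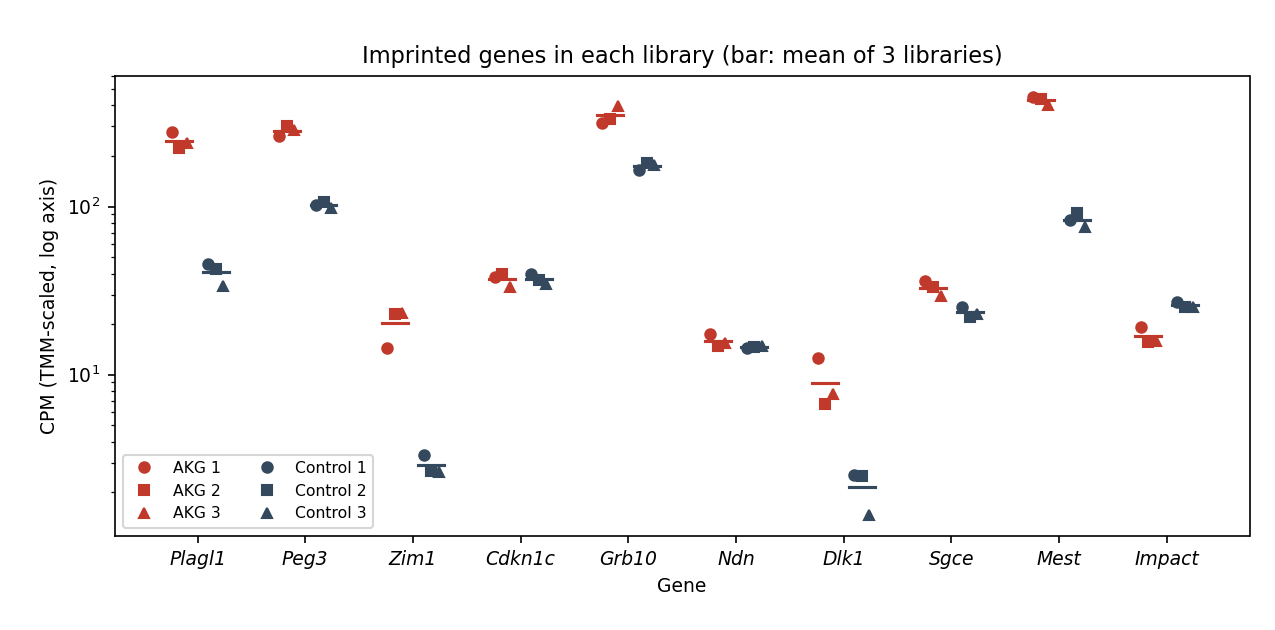
CPM of each imprinted gene in each library on a log axis, with AKG libraries in red to the left of Control libraries in blue and a bar at the mean of each group. The groups are apart for 8 genes, Impact being the one with AKG below Control, and they overlap for Cdkn1c and Ndn.

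Of the nuclear zinc finger proteins, Plagl1 is a transcription factor that in the mouse raises the transcription of other genes of the network. Plagl1 stood at 278, 225 and 238 CPM in AKG 1, 2 and 3, against 45.8, 42.7 and 33.6 CPM in Control 1, 2 and 3. The groups were far apart, and no AKG library came near a Control library. Its log2 fold change was 2.60 (SE 0.121), where the SE is the absolute fold change on the log2 scale divided by the square root of edgeR's F statistic. Peg3, a large zinc finger protein linked to fetal growth and maternal care in the mouse, stood at 263, 304 and 284 CPM in the AKG libraries, against 102, 107 and 98.3 CPM in the Controls. The libraries of each group lay close together, and the log2 fold change was 1.47 (SE 0.081). Zim1, the maternally expressed zinc finger gene beside Peg3, stood at 14.5, 23.0 and 23.4 CPM in the AKG libraries, against 3.33, 2.67 and 2.65 CPM in the Controls. AKG 1 was the lowest AKG library for Zim1, and all 3 stood well above the Controls. The Zim1 log2 fold change of 2.81 (SE 0.206) rested on 1050 counts over the AKG libraries and 128 over the Controls.

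Of the brakes on growth, Cdkn1c encodes p57, an inhibitor of cyclin-dependent kinases that holds cells out of the cycle. Cdkn1c stood at 38.2, 39.9 and 33.5 CPM in the AKG libraries, against 39.9, 36.5 and 34.7 CPM in the Controls. The groups overlapped throughout, and the log2 fold change of 0.01 (SE 0.0938) changed sign with the library left out. Grb10, an adaptor that binds the insulin and IGF1 receptors and dampens their signal, stood at 316, 334 and 399 CPM in the AKG libraries, against 166, 182 and 178 CPM in the Controls. AKG 3 was the highest library, the groups were apart, and the log2 fold change was 0.996 (SE 0.0942). Ndn, which encodes necdin, a growth suppressor of neurons and muscle precursors, stood at 17.4, 14.8 and 15.4 CPM in the AKG libraries, against 14.4, 14.7 and 14.9 CPM in the Controls. AKG 1 and AKG 3 stood above every Control, AKG 2 lay among the Controls, and the log2 fold change was 0.11 (SE 0.108).

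Of the proteins of the membrane and the secretory path, Dlk1 is a Delta-like protein of fetal mesenchyme that is shed from the cell surface. Dlk1 stood at 12.5, 6.71 and 7.71 CPM in the AKG libraries, against 2.52, 2.48 and 1.47 CPM in the Controls. AKG 1 stood apart from the other AKG libraries, with 1.87 times the level of AKG 2, and the log2 fold change was 2.05 (SE 0.280). AKG 1 also held the highest summed level of 12 fibroblast markers, 3913 CPM beside 2911 and 3052 CPM in AKG 2 and 3. The Controls held 2942 to 3717 CPM. Of these 12 markers 3 rose and 4 fell in AKG libraries, beside 25% and 25.2% of all tested genes. The falls were those of Pi16 (-1.83), Mfap5 (-1.49), Gsn (-0.50) and Lum (-0.33). The rises were those of Postn (0.72), Tcf21 (0.54) and Pdgfra (0.49). AKG 1 was the highest AKG library for most of these markers and the lowest for Pdgfra and Tcf21. It was also the highest for the atrial genes Myl7, Bmp10 and Sln. It held the highest sum of 8 epicardial markers too, 72.2 CPM beside 55.1 and 46.4 CPM, against 44.6 to 51.5 CPM in the Controls. The part of all these markers in the Dlk1 level was not tested. Sgce, a sarcoglycan found in many tissues, stood at 36.1, 33.1 and 29.6 CPM in the AKG libraries, against 25.5, 22.1 and 23.04 CPM in the Controls. The lowest AKG library was close to the highest Control, and the log2 fold change was 0.49 (SE 0.101). Mest, an α/β-hydrolase of the endoplasmic reticulum that marks fetal mesoderm, stood at 452, 438 and 403 CPM in the AKG libraries, against 82.9, 91.8 and 75.4 CPM in the Controls. Its log2 fold change was 2.37 (SE 0.0929), and it took more counts than any other member in AKG libraries. Impact, which restrains the amino acid sensor Gcn2, stood at 19.2, 15.7 and 16.0 CPM in the AKG libraries, against 27.0, 25.3 and 25.2 CPM in the Controls. It was the only member below Control in every AKG library, with a log2 fold change of -0.60 (SE 0.105).

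Levels of different genes were compared per length, in the FPKM that the authors deposited. In AKG libraries Mest was the most abundant at 195.7 ± 7.72 FPKM (mean ± SD over 3 libraries), followed by Grb10 at 82.2 ± 12.7 and Plagl1 at 66.1 ± 9.18 FPKM, whose ranges overlapped. Peg3 followed at 38.8 ± 2.99 FPKM, then Cdkn1c at 26.6 ± 0.755 and Sgce at 23.7 ± 1.94 FPKM, which overlapped. Impact, Dlk1 and Ndn, at 6.65, 6.51 and 5.01 FPKM, overlapped with their neighbours in the order, and Zim1 was lowest at 3.13 ± 0.764 FPKM. In Control libraries Grb10 at 30.8 ± 2.62 and Mest at 28.1 ± 3.98 FPKM overlapped at the top, and no other neighbours in the order did. Below them stood Cdkn1c at 18.6, Sgce at 12.5, Peg3 at 10.03, Plagl1 at 8.11, Impact at 6.11, Ndn at 3.41, Dlk1 at 1.05 and Zim1 at 0.354 FPKM. Plagl1 was thus above Cdkn1c per length in AKG libraries and below it in Control libraries. All 10 genes together took 0.168%, 0.160% and 0.177% of the counts of AKG 1, 2 and 3, against 0.0424%, 0.0476% and 0.0407% in Control 1, 2 and 3.

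The scaling moved every fold change by about the same amount. Scaled by total counts, all genes together had a median of 0.45, and 9 of the 10 members were still above 0. Impact then had -0.16, Ndn 0.56 and Cdkn1c 0.45, so relative to that shift their order was as before. In the authors' deposited table, which takes the ratio of mean FPKM, Impact had a log2 fold change of 0.12 and a false discovery rate of 8.96e-05. The same table gave Cdkn1c a log2 fold change of 0.52 with a false discovery rate of 0.962, and Ndn 0.56 with 0.626. No source used here states which values gave these rates, so the rate of Impact is not read as that of a rise. Impact had 7.02, 4.67 and 8.26 FPKM in AKG 1, 2 and 3, against 6.10, 6.62 and 5.61 FPKM in the Controls. The groups thus overlapped in FPKM. The authors' deposited table was above the counts-based values by a median of 0.444 over all tested genes, and by 0.73 for Impact.

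**Figure D2:**
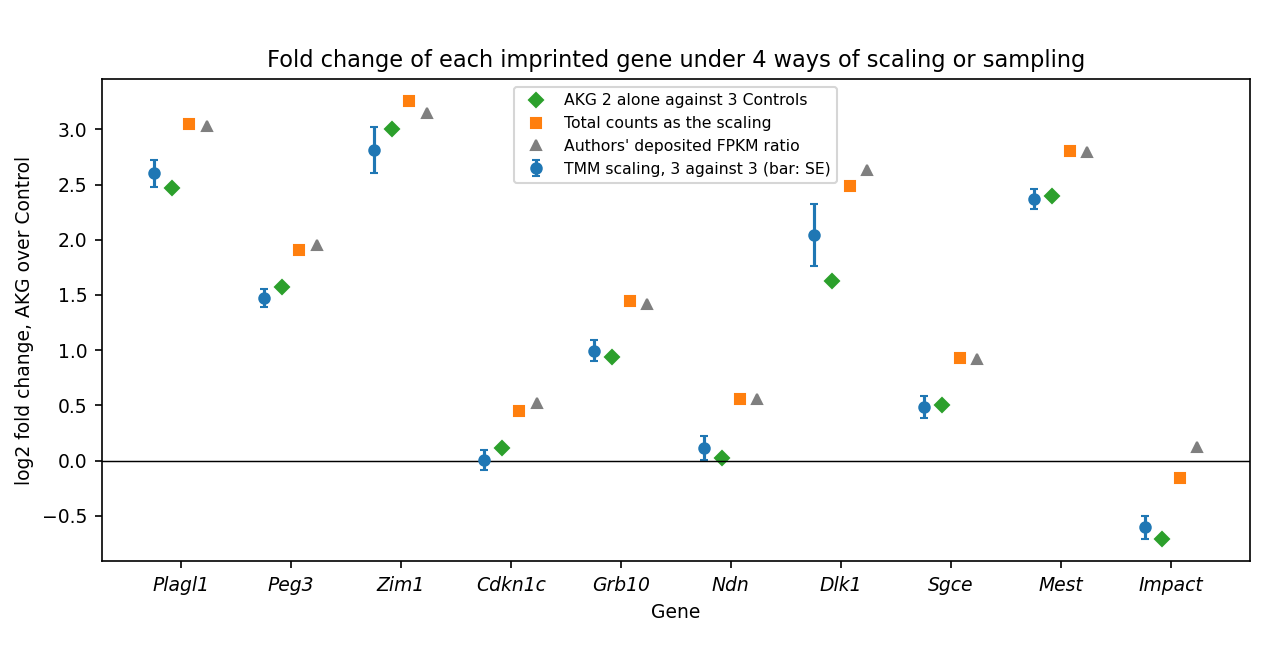
Log2 fold change, AKG over Control, of each imprinted gene under TMM scaling with its SE, with AKG 2 as the single AKG library, when scaled by total counts, and in the authors' deposited FPKM ratios. Total counts and FPKM ratios lie above the TMM values throughout, and Impact is above 0 in the deposited ratios and in no other of these settings.

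The count and the FPKM of a gene together give the transcript length that the deposited FPKM assumed, which follows the mix of transcript forms assigned to the gene. Ndn, with 1 annotated transcript in GENCODE M21, gave 3694 bases in all 6 libraries, as a single form should. For Impact, with 9 annotated transcripts, the implied length was 3181, 3763 and 2358 bases in the AKG libraries, against 3677, 3454 and 3763 bases in the Controls. The groups overlapped, and AKG 3 stood far below the rest. The implied length of Cdkn1c was 1640, 1645 and 1582 bases in the AKG libraries, against 1676, 1742 and 1714 bases in the Controls, a log2 ratio of -0.08 between the group means. The Peg3 length was likewise shorter in every AKG library, 8525 ± 99.2 bases against 8775 ± 14.0 bases in the Controls. Of 10432 genes with at least 50 counts and 0.5 FPKM in every library, 26.2% were shorter in all 3 AKG libraries than in all 3 Controls and 7.59% longer. Among the members 2 were shorter in this sense, Cdkn1c and Peg3, and Grb10 was longer. With 3 libraries against 3, an exact two-sided permutation test cannot go below p = 0.1, so none of these lengths was tested further.

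**Figure D3:**
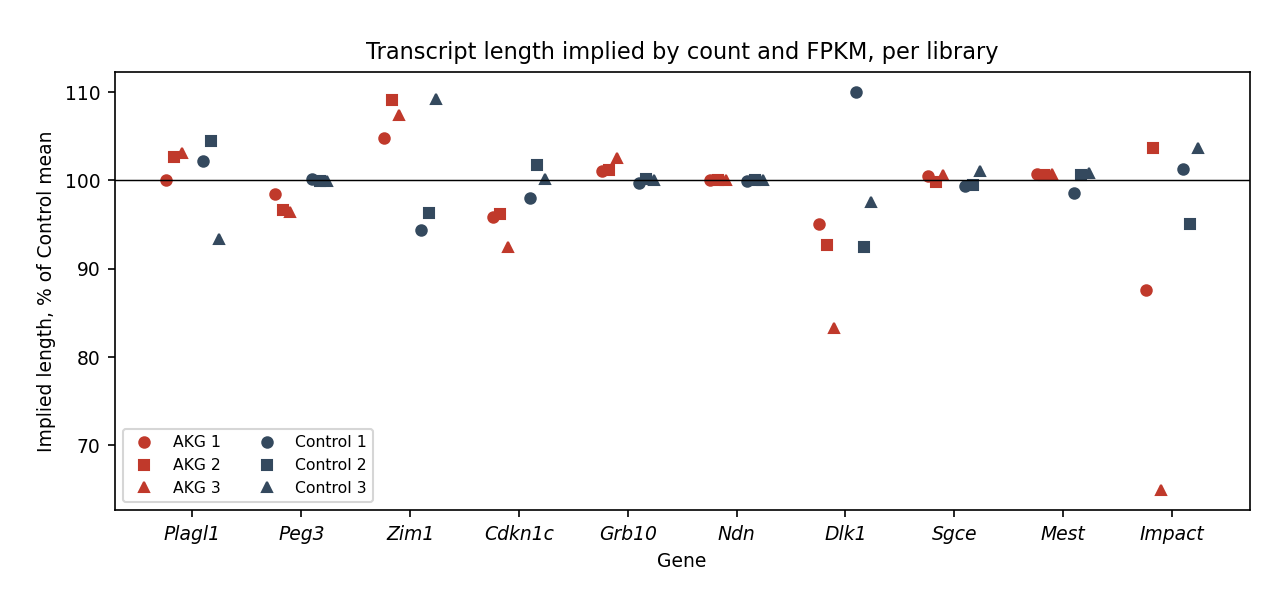
Transcript length implied by count and FPKM for each imprinted gene and library, as a percent of the Control mean, with AKG libraries in red to the left of Control libraries in blue. Ndn is flat, Peg3 and Cdkn1c lie lower in all AKG libraries, and AKG 3 is far below the other libraries for Impact.

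Beside the 10 members, 74 other genes reported as imprinted in at least 1 mouse tissue were listed. The table held 61 of them, and 44 had enough counts to be tested. In edgeR's quasi-likelihood test with Benjamini-Hochberg adjustment over all tested genes, 17 of the 44 rose and 12 fell (38.6% and 27.3%). Over all tested genes 25% rose and 25.2% fell, 50.2% in all. The median log2 fold change of the 44 was 0.20, beside 0.00 for all genes. Scaled by total counts, 26 rose and 2 fell, where 56.7% of all tested genes rose and 9.12% fell.

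Igf2r, the receptor that clears the growth factor IGF2 from the cell surface, stood at 455 ± 31.1 CPM in AKG and 132 ± 5.78 CPM in Control libraries (SD, n = 3 each). Its log2 fold change was 1.79 (SE 0.0838, adjusted p = 5.62e-09 in edgeR's quasi-likelihood test). Igf2 itself had a log2 fold change of 1.58 (edgeR adjusted p = 1.94e-07), so the ligand and its clearance receptor were both higher. The amino acid transporter gene Slc38a4 stood at 56.9 ± 4.05 CPM in AKG and 28.6 ± 3.68 CPM in Control libraries (edgeR adjusted p = 3.53e-06). Zdbf2, a paternally expressed gene that promotes growth of young mice, stood at 5.60 ± 0.656 CPM in AKG and 1.29 ± 0.353 CPM in Control libraries (edgeR adjusted p = 1.35e-05). Smoc1, which encodes a secreted matrix protein, rose by 1.38 and Gab1, a receptor adaptor, by 0.60 on the log2 scale. Of 16 further genes tied to the same network, all in the list of 74, 10 were tested. Of these 10, with a median of 0.55, 6 rose and 2 fell, beside 25% and 25.2% of all tested genes. The rises were those of Igf2r, Igf2, Slc38a4, Peg10, Ppp1r9a and Asb4. The falls were those of Dcn, the matrix proteoglycan decorin of fibroblasts (-0.52), and Gnas, the stimulatory G protein subunit (-0.30), and neither passed when scaled by total counts. Gnas also missed the threshold without Control 1 and with AKG 2 as the single AKG library. Gatm, a creatine synthesis gene (-0.44), and Nnat, neuronatin (-0.16), were the others tested and did not pass, although Gatm had -1.03 and passed with AKG 2 as the single AKG library.

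Genes listed near the members were compared next, since genes of 1 imprinted domain can share control regions. Some, such as Osbpl1a and Cabyr near Impact and Phactr2 and Sf3b5 near Plagl1, are not in the list of imprinted genes. For these, shared control is not known. The protein-coding genes nearest Plagl1 in GENCODE M21, Zc2hc1b and Ltv1, were not listed. Of 47 genes listed, 38 were in the table and 28 were tested. Of these 28, with a median of 0.28, 12 rose and 6 fell, beside 25% and 25.2% of all tested genes. Most of the 28 were already counted among the other imprinted genes above, so these counts are not a separate result. Scaled by total counts, 19 rose and 2 fell, beside 56.7% and 9.12% of all tested genes. Around Grb10, both Ddc and Cobl rose. Ddc, whose heart transcript is paternally expressed in the mouse embryo and which encodes an aromatic amino acid decarboxylase, stood at 37.9 ± 6.02 CPM in AKG and 8.72 ± 1.23 CPM in Control libraries (SD, n = 3 each). Its log2 fold change was 2.12 (SE 0.139, edgeR adjusted p = 1.21e-07). Cobl, an actin nucleator gene, stood at 22.9 ± 0.682 CPM in AKG and 6.63 ± 0.766 CPM in Control libraries (edgeR adjusted p = 8.87e-08).

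Around Sgce, 6 of 7 tested neighbours rose and 1 fell, beside 25% and 25.2% of all tested genes. Peg10, a retrotransposon-derived gene that starts beside Sgce on the other strand, stood at 5.24 ± 0.771 CPM in AKG and 1.91 ± 0.332 CPM in Control libraries, a log2 fold change of 1.46 (edgeR adjusted p = 0.000151). Asb4 (0.60), the paraoxonase genes Pon3 (0.52) and Pon2 (0.35), Ppp1r9a (0.49) and Casd1 (0.44) rose on the log2 scale, Asb4 missing the threshold with AKG 2 as the single AKG library. The protease inhibitor gene Tfpi2 fell by 0.98 on the log2 scale, which did not pass when scaled by total counts; its edgeR adjusted p was 0.0028, and 0.00217 to 0.0599 over 17 alternatives. Around Mest, Copg2, a coat protein gene, rose by 0.59 on the log2 scale, and Cep41 had 0.11 and did not pass. Copg2 overlaps Mest on the opposite strand in GENCODE M21, and no source used here states whether the counting used strand, so reads of this overlap cannot be told apart. Klf14, a transcription factor gene of the same domain, had 40 counts over the AKG and 3 over the Control libraries, a ratio of 11.4 with an exact 95% interval of 3.63 to 57.6 that covers counting error only.

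Around Ndn, 2 of 5 tested neighbours fell, Snrpn and Atp10a, beside 25.2% of all tested genes, while Peg12, Mkrn3 and Ube3a did not pass. Magel2 had 12 counts over the AKG and 1 over the Control libraries, and Snurf had 6 and 0, too few to be tested. Snrpn, a splicing protein gene of the same paternally expressed cluster as Ndn, stood at 26.4 ± 2.16 CPM in AKG and 59.4 ± 2.65 CPM in Control libraries (SD, n = 3 each). Its log2 fold change was -1.17 (SE 0.0865, edgeR adjusted p = 2.21e-07). The flippase gene Atp10a had -1.30 (edgeR adjusted p = 0.0002). Around Cdkn1c, Kcnq1, the potassium channel of cardiac repolarisation, stood at 48.6 ± 6.61 CPM in AKG and 25.7 ± 2.39 CPM in Control libraries (edgeR adjusted p = 1.4e-05). Cd81 (-0.40) and Nap1l4 (-0.18) fell, both above 0 when scaled by total counts, and Tssc4 (-0.23) and Osbpl5 (0.20) did not pass. Nap1l4 (edgeR adjusted p = 0.0486) passed as a fall in 4 of 17 alternatives and as a rise in 2, with adjusted p up to 0.172, and Tssc4 passed in 1 of 17, without AKG 1. Around Plagl1, Phactr2 rose by 0.76 and Sf3b5 fell by 0.45 on the log2 scale, and Sf3b5 did not pass when scaled by total counts. Around Dlk1, Begain (0.02) and Wdr25 (0.56) did not pass, and Rtl1 and Dio3 had too few counts to be tested. Around Impact, Osbpl1a (0.03) and Cabyr (0.97) did not pass. Of the neighbours that did not pass, Wdr25, Osbpl1a, Cabyr, Osbpl5, Cep41 and Ube3a passed as rises when scaled by total counts, and Wdr25 also without AKG 2. Usp29, which faces Peg3, had too few counts to be tested.

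**Figure D4:**
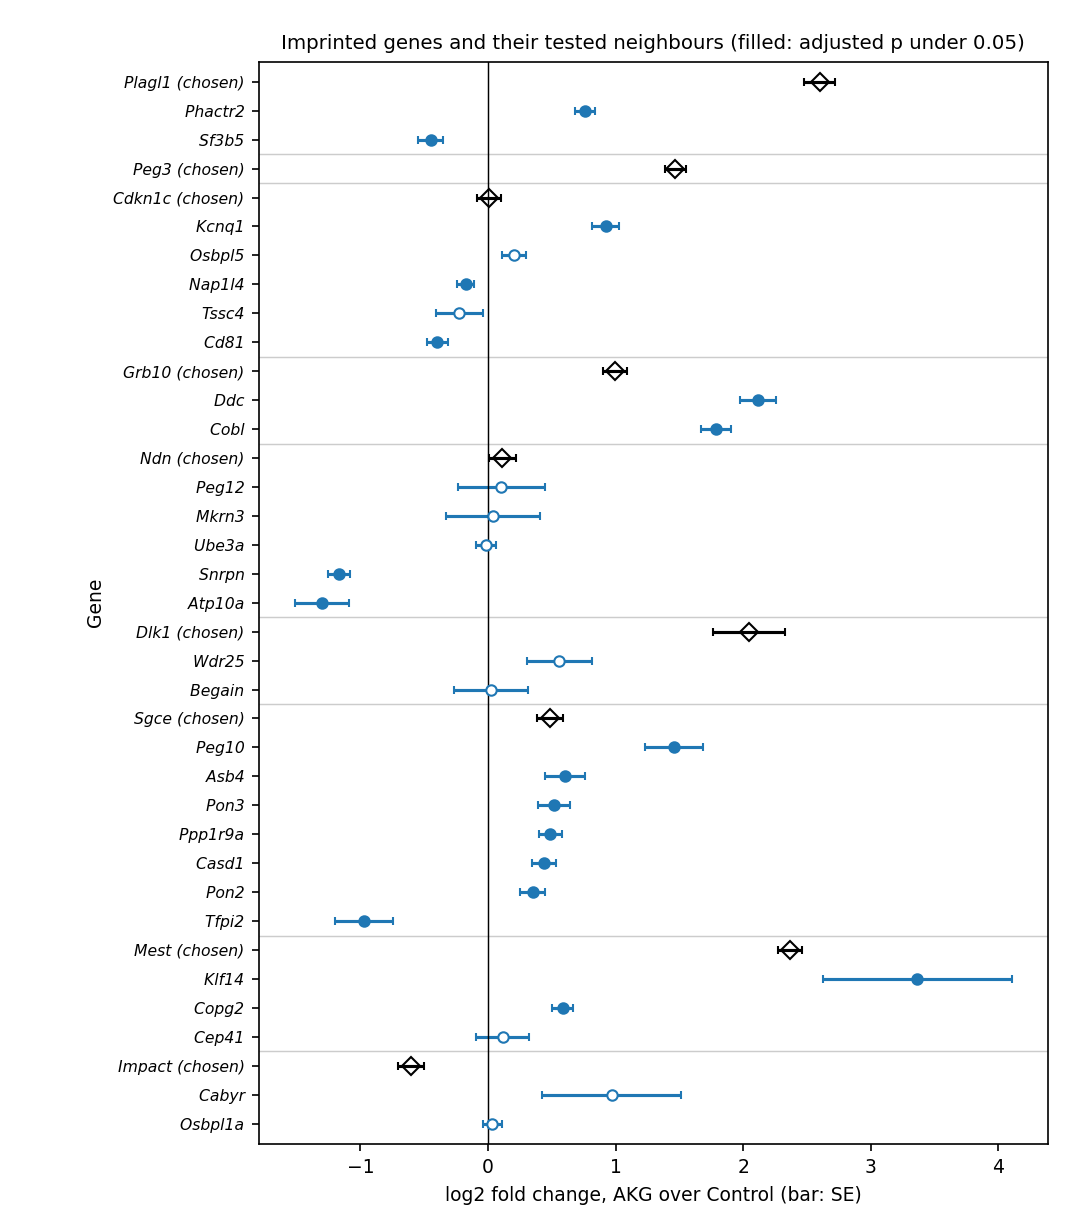
Log2 fold change with SE, AKG over Control, of imprinted genes (open diamonds, not tested) and of tested genes listed near them (circles, filled where the adjusted p was under 0.05). Neighbours of Grb10 and most neighbours of Sgce lie right of 0, Snrpn and Atp10a of the Ndn domain lie left of it, and neighbours of Dlk1 and Impact are unfilled.

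Genes whose proteins act with the members, or belong to their families, were listed in the same way. Of 37 listed, 36 were tested, 16 rose and 11 fell, with a median of 0.20, beside 25% and 25.2% of all tested genes. Scaled by total counts, 24 rose and 1 fell, beside 56.7% and 9.12%. Of 6 partners of Grb10 in insulin signalling, 5 rose. The insulin receptor substrate Irs2 stood at 35.9 ± 4.94 CPM in AKG and 8.81 ± 0.423 CPM in Control libraries, a log2 fold change of 2.03 (edgeR adjusted p = 3.12e-08). Irs1 rose by 1.38, the IGF1 receptor Igf1r by 1.21, the insulin receptor Insr by 0.72 and the ubiquitin ligase Nedd4, which binds Grb10, by 0.81 on the log2 scale. Mtor fell by 0.32 on the log2 scale (edgeR adjusted p = 0.00575) and was above 0 when scaled by total counts. Receptors and receptor substrates were higher beside the adaptor that dampens them.

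Genes of the Notch pathway, on which Dlk1 acts, went both ways. Of 9 tested, 2 rose and 5 fell, beside 25% and 25.2% of all tested genes. None of the 5 falls passed when scaled by total counts, where 9.12% of all tested genes fell. None passed in limma on log2(FPKM + 1) either. Hey2, a Notch target of the ventricle, stood at 15.8 ± 0.707 CPM in AKG and 5.93 ± 0.361 CPM in Control libraries (edgeR adjusted p = 1.09e-06), and Notch1 rose by 0.35 on the log2 scale. Notch2 (-0.63) and the targets Hes1 (-0.58), Heyl (-0.50) and Hey1 (-0.63) fell, as did Adam17 (-0.45), a sheddase of Dlk1 and Notch. Hey1 (edgeR adjusted p = 0.0305) missed the threshold without AKG 1, Control 2 or Control 3 and with no filter on low counts, and had -0.24 and did not pass with AKG 2 as the single AKG library. Over 17 alternatives 9 passed, with adjusted p from 0.00108 to 0.375.

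Of the kinase inhibitors related to Cdkn1c, Cdkn1b, which encodes p27, stood at 95.1 ± 14.9 CPM in AKG and 55.7 ± 4.14 CPM in Control libraries (edgeR adjusted p = 0.00013). Cdkn1a, which encodes p21, stood at 39.4, 64.1 and 83.7 CPM in the AKG libraries, against 29.7, 31.7 and 35.6 CPM in the Controls. The AKG libraries were spread widely and all above the Controls, and the edgeR adjusted p was 0.0512. It was 2.47e-06 without AKG 1, and between 1.28e-07 and 0.142 over 17 alternatives, of which 9 passed. The Plagl1 relative Plag1 rose by 0.78 on the log2 scale and Plagl2 (-0.00) did not pass. The necdin relatives Maged2 and Maged1 rose by 0.79 and 0.36. Eif2ak4, which encodes the sensor Gcn2 that Impact restrains, rose by 0.53 on the log2 scale (edgeR adjusted p = 0.0127) and missed the threshold without Control 2 alone among 17 alternatives (highest adjusted p 0.06). Atf4, a factor induced downstream of Gcn2, fell by 0.42 on the log2 scale (edgeR adjusted p = 0.00504) and was at 0.02 when scaled by total counts.

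**Figure D5:**
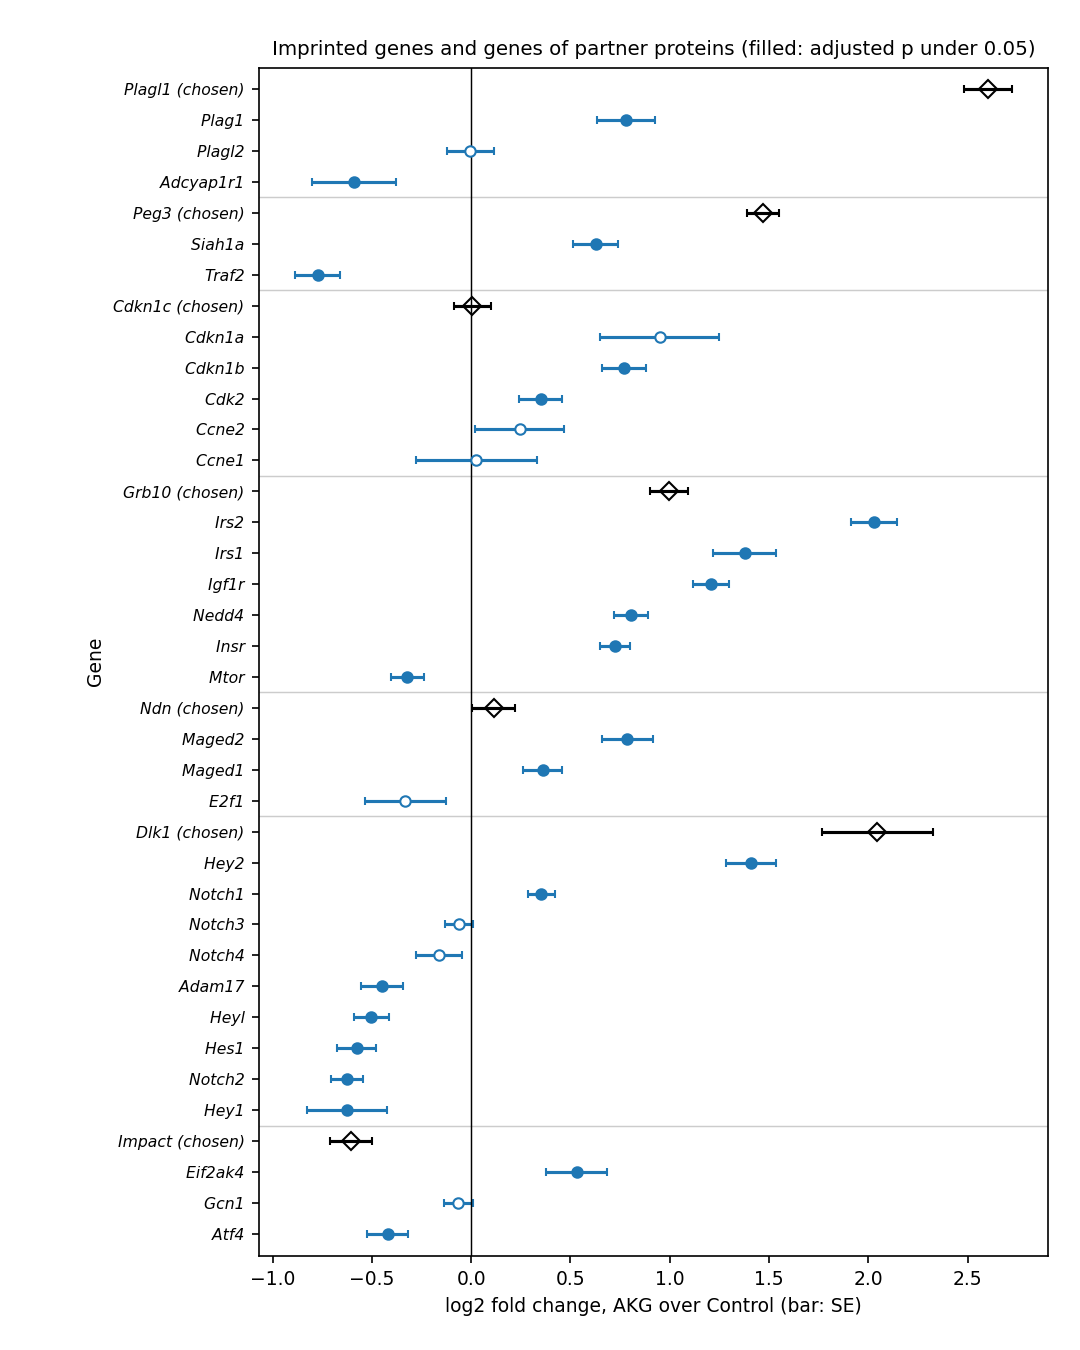
Log2 fold change with SE, AKG over Control, of 7 of the imprinted genes (open diamonds, not tested) and of genes for their partner or related proteins (circles, filled where the adjusted p was under 0.05). Partners of Grb10 lie right of 0 except Mtor, and those of Dlk1 lie on both sides.

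Of 14 tested genes that keep imprints, 2 rose and 3 fell, beside 25% and 25.2% of all tested genes. Scaled by total counts, 9 rose, beside 56.7% of all tested genes. Zfp57, the protein that reads TGCCGC, stood at 12.2 ± 2.75 CPM in AKG and 12.2 ± 1.39 CPM in Control libraries (edgeR adjusted p = 0.951). Zfp445, a zinc finger protein that shares this task, stood at 122 ± 19.6 CPM in AKG and 189 ± 7.24 CPM in Control libraries (edgeR adjusted p = 0.000294) and did not pass when scaled by total counts. Their corepressor Trim28 rose by 0.32 and Arid4a by 0.42 on the log2 scale. The DNA methyltransferase gene Dnmt3a fell by 0.29 and the histone methyltransferase gene Setdb1 by 0.29 on the log2 scale, both above 0 when scaled by total counts, and Setdb1 missed the threshold with AKG 2 as the single AKG library. Of 10 tested genes of fetal growth that are not imprinted, a list chosen with earlier results known, 8 rose and 1 fell, beside 25% and 25.2% of all tested genes, with a median log2 fold change of 1.38. The RNA-binding protein genes Igf2bp2 (1.59) and Igf2bp3 (2.89), the transcription factor gene Sox4 (1.88) and the growth factor gene Ptn (2.17) rose on the log2 scale. Igf2bp1 rose too, with 173 counts over the AKG and 9 over the Control libraries, Mycn was the one that fell (-1.74), and Mdk (0.41) did not pass.

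Among 12593 other genes with a mean of at least 1 CPM, 5 had the pattern most like the mean of the members over the 6 libraries. Likeness was the root mean square difference of log2 CPM centred on each gene's mean. These were Heca (0.034), Sox12 (0.0359), Gtdc1 (0.0434), Cln6 (0.0647) and Zfp277 (0.0648). Heca stood at 82.2, 76.3 and 73.0 CPM in the AKG libraries, against 33.8, 34.3 and 30.8 CPM in the Controls. Of the members, Peg3 (0.159) and Grb10 (0.187) were closest to the members' own mean and Impact (0.914) was farthest.

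Library totals ranged from 14402876 to 15315236 counts in AKG and from 16241120 to 17797368 counts in Control libraries, and 3 counts correspond to 0.166 to 0.221 CPM. Heart muscle markers were present in every library. The sum of 10 such markers was 30830 to 33750 CPM in AKG and 62830 to 67960 CPM in Control libraries. Of these 10, 7 fell, where 25.2% of all tested genes fell and 25% rose. The sum leans on abundant genes such as Myh6, with means of 12427 CPM in AKG and 27743 CPM in Control libraries. Actc1 had means of 2996 and 11995 CPM. Pln (-0.01), Nkx2-5 (0.08) and Actn2 (-0.13) did not pass, so the sum is not read as the share of heart muscle cells. Mural markers summed to 1412 to 1609 CPM in AKG and 2328 to 2549 CPM in Control libraries (6 of 10 fell, 1 rose), and macrophage markers to 71.7 to 102 CPM in AKG and 116.5 to 177 CPM in Control libraries (5 of 10 fell). Endothelial markers summed to 2251 to 2795 CPM in AKG and 2449 to 2702 CPM in Control libraries. Of the adipocyte markers 4 of 8 had no counts in any library, and Cidea, the only one tested, fell by 0.62 on the log2 scale. Schwann and neural markers summed to 8.71 to 8.99 CPM in AKG and 13.9 to 17.2 CPM in Control libraries. Skeletal muscle markers, of which only Ckm was tested, summed to 986 to 1155 CPM in AKG and 1572 to 1897 CPM in Control libraries. Nearly all of this sum was Ckm, at 985, 1155 and 1013 CPM in AKG 1, 2 and 3. Of the 7 markers, 5 had at most 3 counts in each group, namely Myh1, Myh4, Myod1, Myog and Pax7. The sum is therefore not read as a level of skeletal muscle. Over 4 Y-linked genes the sum came to 89.2, 50.4 and 39.01 CPM in the AKG libraries, against 168, 0.311 and 176 CPM in the Controls, with Control 2 alone near 0. Y-linked genes mark male tissue, so the libraries were not alike in sex make-up. Control 2 was thus not a repeat of the same sample as Control 1 or Control 3. Sex was no term in the fit. The part of sex and of these markers in the members' levels was not tested.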

How the data were processed

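RNA sequencing of heart muscle cells gave 1 table for the series. Its estimated counts, deposited as whole numbers per gene and library, were used as they stand, and 60 of them were 0 beside an FPKM above 0. The authors deposited FPKM values in the same table, with a log2 ratio of mean FPKM, a p-value and its false discovery rate per gene. The submitters' processing notes name HISAT2 2.1.0, RSEM 1.2.19 and DESeq2 1.20.0, and the role of each, the genome build and the strand setting are not given in the sources used here. Because FPKM follows the library total, a fall of very abundant transcripts raises it for other genes.

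The tests used edgeR 4.0.16 under R 4.3.3: filterByExpr (minimum count 10, total 15), TMM scaling and the robust quasi-likelihood test of AKG against Control over 13117 genes, with Benjamini-Hochberg adjustment and a threshold of 0.05. The fit was also run on simulated counts with known changes in a small set of genes, balanced between rises and falls. That simulation held no shift in library make-up between the groups, so it says nothing about the scaling of these libraries. Rows without a symbol (30) or sharing one (72) were kept by ID. Alternatives used limma 3.58.1, DESeq2 1.42.0, other scalings and filters, the replicate block and left-out libraries. The members and lists were chosen with earlier results of these data known. Named were the members, their tested neighbours, up to 12 other imprinted genes and 4 genes of each other list by smallest p with a mean of at least 1 CPM, and the 5 nearest patterns. Further list genes named were chosen after their values were seen. Long noncoding imprinted genes were not analysed here. Partners of Sgce enter the partner counts and are not reported singly here.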

Additional observations from a re-analysis of the deposited data

How the results depend on the processing

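Counts of genes moved most with total-count scaling and with FPKM, which also changes the method and adds a pseudocount. Total-count scaling called 7431 genes higher and 1196 lower in AKG libraries, other imprinted genes numbering 26 and 2, with 9 imprint maintenance genes past the threshold and a member median of 1.68. Limma on log2(FPKM + 1) gave 6755 and 1054 genes, 2 other imprinted genes lower, 8 maintenance genes and a median of 1.49, and with a pseudocount of 0.1 it gave 6668, 1006, 2, 9 and 1.67. In these 3 settings, in the same order, some log2 fold changes turned above 0: Cd81 (0.0447, 0.0631, 0.0634), Nap1l4 (0.27, 0.26, 0.27), Ube3a (0.43, 0.31, 0.34), Gnas (0.14, 0.0568, 0.0569), Dnmt3a (0.15, 0.13, 0.14), Setdb1 (0.16, 0.14, 0.15), Plagl2 (0.44, 0.30, 0.42), Mtor (0.13, 0.20, 0.23) and Atf4 (0.0189, 0.0240, 0.0245). Zfp57 turned above 0 and passed with total counts (0.42), and Impact (0.0784 and 0.0849) and Adam17 (0.00688 and 0.00634) turned above 0 in both FPKM settings. Tested genes are listed here only where they passed with TMM scaling or in the setting named. Other genes that did not pass may also have changed sign. The median of all genes in these 3 settings was 0.38 to 0.45.

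With 1 library left out, Cdkn1c lay between -0.0409 and 0.0815, and the member median between 1.18 and 1.30. Counts of higher genes ranged from 2751 to 3296 and of lower genes from 2845 to 3243. The replicate numbers were not taken to pair the libraries, because deviations of same-numbered libraries correlated at 0.161, -0.0342 and 0.0489. With the replicate block, 3257 genes were higher and 3314 lower and the member median was 1.23. With AKG 2 as the single AKG library, Ndn had 0.0228, Hey1 -0.24 and Peg3 1.57, and Hey1, Nap1l4, Gnas, Asb4 and Setdb1 did not pass. Cdkn1a, at an adjusted p of 0.0512, passed in 9 of 17 alternatives (1.28e-07 to 0.142), among them DESeq2, limma-voom and the replicate block. Zim1 had 1.59 on the log2(FPKM + 1) scale, whose pseudocount compresses low genes.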

Other observations

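Of the 61 other imprinted genes in the table, 17 had too few counts to be tested, and 4 of these, Ins2, Kcnk9, Phlda2 and Slc22a2, had no counts in any of the 6 libraries, which allows a level of up to 0.166 to 0.221 CPM per library.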
